A study of Macaca mulatta with 11 samples.

Results

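The trend described here is the change in gene expression, in even steps of stage, from gestation to adulthood in marrow stromal cells of the rhesus monkey (Macaca mulatta). All 11 arrays of the series entered it, and each was scored by its donor's stage: 1 for gestation day 120, 2 for newborn, 3 for infant and 4 for adult. A straight line through these scores was fitted to each of 22215 probe sets on the log2 scale. A slope was called when its Benjamini-Hochberg adjusted p in limma was under 0.05. Of the 22215 probe sets, 61 had a called slope (0.275%), 18 of them rising (0.081%) and 43 falling (0.194%). This balance depended on the scaling and the score: quantile normalization gave 26 rising and 24 falling, and log10 age since conception gave 20 rising and 13 falling. At an unadjusted p under 0.05 there were 2092 (9.42%), 870 of them rising. The slope is in log2 units per stage, so that a slope of 1 means a doubling from each stage to the next.

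Mesenchymal stem cells, also called marrow stromal cells, are the adherent cells of marrow that can form bone, cartilage and fat cells in culture. In a growing animal they belong to a tissue that is still laying down bone, and in the adult they maintain it. Genes that are active in fetal tissues, such as the HMGA chromatin proteins and the IGF2 messenger RNA binding proteins, are known to be turned down in many tissues after birth.

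The 2 arrays of gestation day 120 and the 2 newborn arrays came from marrow flushed out of long bones, and the 4 infant and 3 adult arrays from marrow aspirated under anaesthesia, per the labels' protocols. Infant donors 1 to 4 were aged 6, 6, 3 and 5 months, and adult donors 1 to 3 were aged 7, 7 and 8 years. The titles count both newborn arrays as fetal. All cultures were untreated, were grown from mononuclear cells that stuck to plastic, and were taken at passage 2, per the labels' protocols. The labels do not say that arrays of one stage came from different animals, so the p-values reflect only how much these cultures varied, which may be technical. For the adult stage, the sex-linked transcripts given below differed between arrays. Because collection changed between newborn and infant, the step between these stages and the collection method cannot be told apart. Within a stage, the labels give no batch.

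Array medians ranged from 164.9 to 169.7 intensity units, and pairs of arrays correlated at 0.928 to 0.983. The first principal component (23.1% of the variance) set adult arrays 1 and 2 and infant arrays 1 and 2 apart from the other 7 arrays and so did not follow stage. The second (17.5%) ran from 20.4 and 12.7 in the gestation day 120 arrays to -7.84, -12.7 and -23.4 in the adult arrays. Adult array 3 also stood apart in sex-linked transcripts. XIST, the RNA that silences an X chromosome in females, was at 11.23 there and at 7.27 to 8.40 elsewhere. RPS4Y1, a Y-linked ribosomal protein gene, was at 7.81 there and at 11.30 to 12.16 elsewhere. By these levels the adult arrays did not all come from the same animal. The human probes of the array can bind monkey RNA unequally well, so levels of different probe sets were not set against each other.

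Among the 61 called probe sets were 45 genes with a symbol of their own, 13 rising and 32 falling. Another 3 probe sets had several symbols and 5 had none. The median called slope was 0.51 for rising and -0.34 for falling probe sets, and the fold between gestation day 120 and adult means ran from 1.61 to 15.3 for rises and from 1.55 to 3.87 for falls. Most of the called probe sets, 57 of 61, lay above the median level of all probe sets. The 4 stage means were in order for 58 of the 61, which choosing them by a slope over the same stages favours. Over all probe sets they were in order for 1549 rising (6.97%) and 1519 falling (6.84%). The 3 called genes whose means were not in order were MYL9, HMGA1 and S100A4.

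The change was shared between the steps. For rising probe sets the median share of the whole change was 30.4% from gestation day 120 to newborn, 35.0% from newborn to infant and 40.4% from infant to adult. For falling probe sets the shares were 38.3%, 31.4% and 34.4%. The 43 falling probe sets had their largest step at birth in 16, at infancy in 16 and at adulthood in 11. An F test of departure from a straight line called 0 of 22215 probe sets (0%). Its lowest adjusted p in limma was 0.707, and 637 probe sets (2.87%) had an unadjusted p under 0.05, among them 6 of the called ones.

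**Figure D1:**
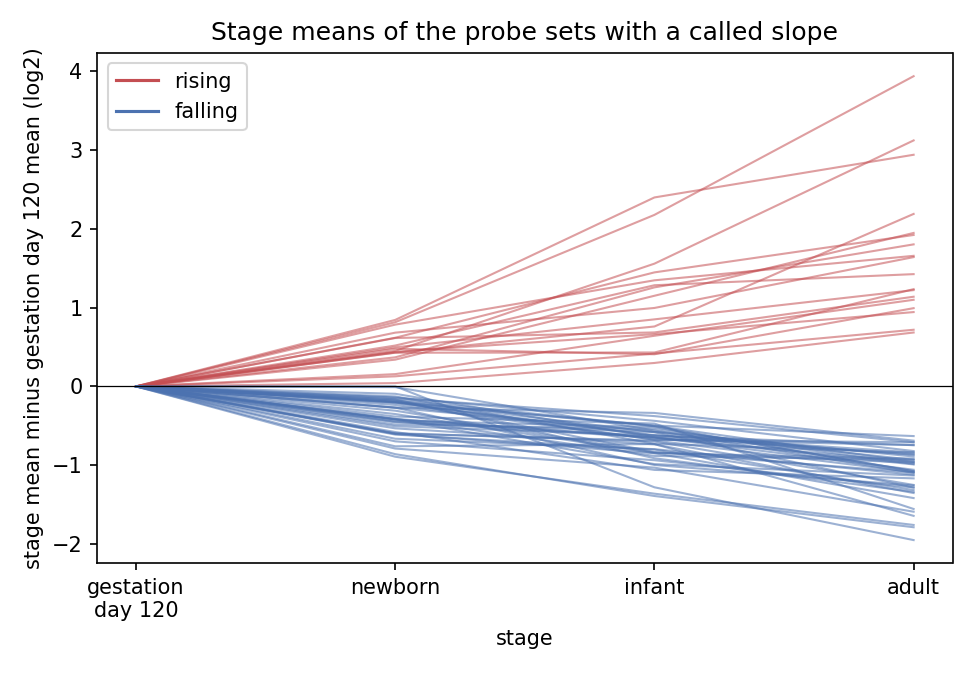
Stage means of the 61 probe sets with a called slope, as the difference from the gestation day 120 mean (log2, vertical axis) against stage (horizontal axis). Each line is 1 probe set, red for the 18 rising and blue for the 43 falling ones. The rising lines spread further from 0 than the falling ones, and most lines keep their direction at all 3 steps.

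Many calls were lost when the collection method was blocked or certain arrays were left out, although all 61 slopes kept their sign in these fits. Other changes of the model kept more of the 61 calls: 61 with array weights, 60 with median centring and 42 with quantile normalization. With the collection method as a block, so that only the change within flushed and within aspirated arrays counts, 0 probe sets were called (0%). The lowest adjusted p in limma was then 0.115, 1122 probe sets (5.05%) had an unadjusted p under 0.05, and 42 of the 61 were among these. The slope within collection methods was a median 1.06 times the slope without the block. Because the 61 were chosen by slope on these same arrays, this ratio and the count of 42 are not independent of that choice. When each array was left out in turn, between 5 probe sets (without gestation day 120 array 1) and 107 (without adult array 3) were called. Without gestation day 120 array 2 there were 9, without newborn array 1 there were 16, without adult array 1 there were 20 and without adult array 2 there were 17. The call held in all 11 of these fits for 4 probe sets, which measured CHI3L1 (both called probe sets), CDH2 and SULF1.

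CHI3L1 had the steepest rise. It encodes chitinase-3-like protein 1 (YKL-40), a secreted glycoprotein of chondrocytes, macrophages and remodelling matrix. On its most firmly called probe set the log2 level was 9.16 and 9.77 in the gestation day 120 arrays, 9.83 and 10.01 in the newborn, 10.90, 11.44, 10.89 and 10.89 in the infant and 12.39, 12.66 and 12.73 in the adult arrays. No array of one stage overlapped with those of the next. The slope was 1.06 per stage (SE 0.090; limma adjusted p = 0.000125), and the adult mean was 8.72-fold the gestation day 120 mean. The highest adjusted p with an array left out was 0.00385.

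The other called CHI3L1 probe set gave a slope of 1.33 and a 15.3-fold difference, also with no overlap between neighbouring stages. The remaining one had a slope of 0.14 and was not called (limma adjusted p = 0.482). Within collection methods the slope of the first was 1.16 (limma adjusted p = 0.284). The step from infant to adult, 1.57 on the log2 scale (SE 0.17), was itself called (limma adjusted p = 0.0129), whereas the step of 0.45 (SE 0.23) from gestation day 120 to newborn was not. Among 18 measured cartilage genes CHI3L1 was the only one called (5.56%, against 0.318% of all genes, each taken by its brightest probe set). Arrays of all 4 stages were fully in order for only 5 of all probe sets (0.0225%): both of CHI3L1, and 1 each of CDH2, CDC25B and POLR2L, which fell.

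SULF1, which also kept its call without any 1 array, encodes an extracellular sulfatase that trims 6-O-sulfates from heparan sulfate and so alters growth factor binding. Its log2 level was 7.68 and 7.66 at gestation day 120, 7.62 and 8.39 in newborn, 9.0, 9.08, 8.91 and 8.28 in infant and 9.60, 9.98 and 9.27 in adult arrays. Each adult array exceeded each infant array, while newborn array 1 was level with the gestation day 120 arrays. The slope was 0.67 (SE 0.083; limma adjusted p = 0.00426, at most 0.0376 with an array left out), a 3.86-fold difference between the ends. Its other probe sets had slopes of 0.46 and 0.03, neither called.

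PTGDS, the lipocalin-type prostaglandin D synthase, rose nearly as steeply as CHI3L1. Its log2 level was 8.76 and 9.17 at gestation day 120, 9.34 and 10.27 in newborn, 11.72, 11.58, 10.14 and 11.99 in infant and 11.34, 12.05 and 12.32 in adult arrays. Infant and adult arrays overlapped, and infant array 3 lay below newborn array 2. The slope was 1.04 (SE 0.15; limma adjusted p = 0.00738) and the end-to-end difference 7.68-fold. Within collection methods it was 0.65. A second probe set was called with a slope of 0.63 and the last, at 0.50, was not (limma adjusted p = 0.102). The call of the first was lost without gestation day 120 array 1 or 2 (adjusted p up to 0.10). Of the 20 measured genes of prostaglandin synthesis and signalling, PTGDS was the only one called, against 0.318% of all genes.

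GAS1, a membrane protein that arrests growth and acts as a hedgehog co-receptor, had levels of 7.63 and 8.13 at gestation day 120, 8.38 and 8.60 in newborn, and 9.50, 9.61, 8.98 and 9.21 in infant arrays, with no overlap among these 3 stages. In adult arrays it was at 10.32, 10.38 and 8.70, so that adult array 3 fell below every infant array. The slope was 0.66 (SE 0.12; limma adjusted p = 0.0297), and the end-to-end difference was 3.79-fold. The other GAS1 probe set had a slope of 0.20 and was not called. In a fit without the adult arrays the slope was 0.73 and still called (limma adjusted p = 0.0377). The call was lost, with adjusted p up to 0.225, without gestation day 120 array 1 or 2, newborn array 1, or adult array 1 or 2.

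ID4, an inhibitor of basic helix-loop-helix transcription factors, rose by 0.52 per stage (SE 0.087; limma adjusted p = 0.0264). Its levels were 6.88 and 6.71 at gestation day 120, 7.21 and 7.75 in newborn, 8.12, 7.99, 7.56 and 7.50 in infant and 9.04, 8.42 and 7.86 in adult arrays, with overlap between each pair of neighbours after the first. Its other probe sets had slopes of 0.17 (the brightest) and 0.026, neither called.

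LAMA2, the alpha 2 chain of laminin and a component of the basement membrane around muscle, nerve and stromal cells, rose by 0.40 per stage (SE 0.066; limma adjusted p = 0.0245). Its levels were 7.70 and 7.88 at gestation day 120, 8.23 and 8.33 in newborn, 8.61, 9.08, 8.35 and 8.51 in infant and 9.12, 8.58 and 9.33 in adult arrays. The first 3 stages did not overlap, and adult array 2 lay among the infant arrays. Its 3 other probe sets, not called, had slopes of 0.029 to 0.23.

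DMD, which encodes the dystrophin that links the cytoskeleton to laminin-bound complexes, rose by 0.37 (SE 0.069; limma adjusted p = 0.0378). It differed in shape: levels of 6.86 and 6.71 at gestation day 120, 7.00 and 7.43 in newborn and 7.24, 7.24, 7.31 and 7.08 in infant arrays were followed by 8.35, 8.00 and 7.73 in adult arrays. The adult arrays stood above all others and the infant arrays lay within the range of the newborn ones. Its 2 other probe sets had slopes of 0.041 and 0.087, neither called. The remaining called rises were MXRA7 (0.38), a matrix remodelling associated membrane protein, SULT1A1 (0.34), a phenol sulfotransferase, SLC47A1 (0.25), an organic cation exporter, and BBLN (0.24). The calls of ID4, LAMA2, DMD and these 4 genes were each lost without gestation day 120 array 1 or 2 or newborn array 1, and without adult array 1 or 2 or both, with adjusted p of at most 0.226. BBLN, for which 9 of 11 such fits lost the call, was also lost without infant array 2, 3 or 4 or adult array 3, and DMD without infant array 3.

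**Figure D2:**
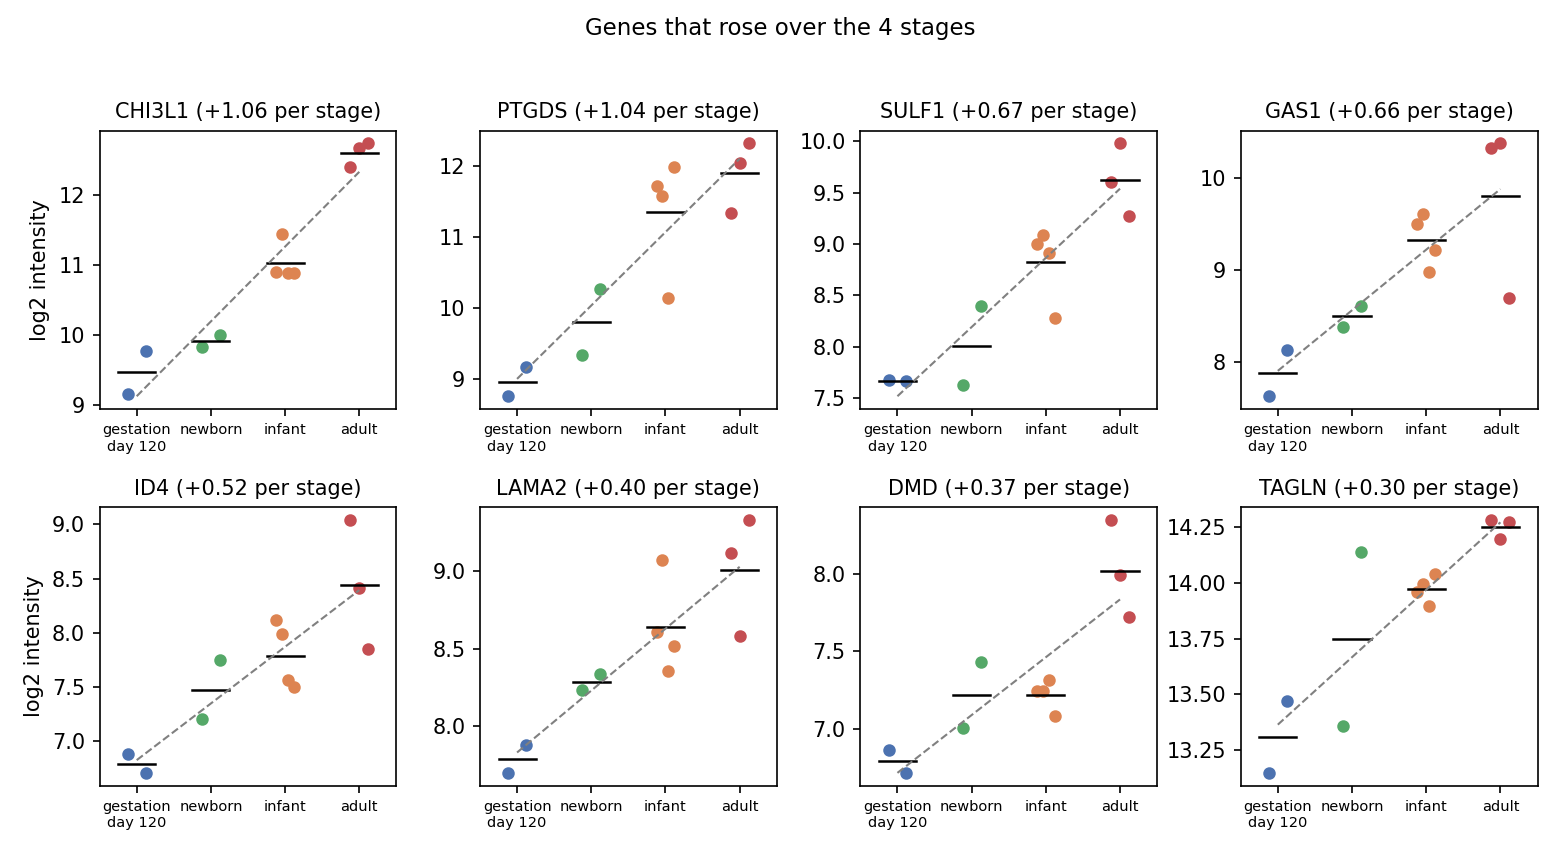
Log2 intensity of 8 rising genes in each of the 11 arrays (vertical axis) by stage (horizontal axis); points are arrays, short bars stage means and dashed lines the fitted slope, which stands in each title. For CHI3L1 the adult arrays, at 12.39 to 12.73, lie above every infant array, whereas GAS1 has 1 adult array, at 8.70, below all infant arrays.

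Contractile genes formed the list with the highest median slope. The list holds actins, myosin light chains, tropomyosins and calponin of smooth muscle, which stromal cells also make in stress fibres. Of 17 measured members 15 had a slope above 0, against 49.7% of all 11963 genes, each gene taken by its brightest probe set. The median slope was 0.24 log2 per stage, against -0.0004 for all genes. Slopes of 2 members were called, both rising (11.8%, against 0.318% of all genes), and 10 rose and 0 fell at an unadjusted p under 0.05.

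The called members were TAGLN, the actin-binding protein transgelin, and MYL9, a regulatory myosin light chain. TAGLN was at 13.15 and 13.47 at gestation day 120, 13.36 and 14.14 in newborn, 13.96, 13.99, 13.90 and 14.04 in infant and 14.28, 14.20 and 14.27 in adult arrays (slope 0.30, SE 0.055; limma adjusted p = 0.0356). MYL9 was at 8.20 and 8.53, then 8.60 and 9.09, then 8.69, 8.86, 8.75 and 8.80, and at 9.31, 9.36 and 9.41 in adult arrays (slope 0.29, SE 0.057; limma adjusted p = 0.0494). In both genes each adult array exceeded all other arrays and newborn array 2 exceeded all infant arrays.

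Both calls needed most of the arrays. They were lost in 9 of the 11 fits without 1 array, TAGLN keeping it only without newborn array 2 or adult array 3 (adjusted p up to 0.262) and MYL9 only without newborn array 2 or infant array 1 (up to 0.327). CNN1 (0.28), TPM2 (0.24), MYLK (0.56) and ACTA2 (0.45), which encode calponin, a tropomyosin, myosin light chain kinase and smooth muscle actin, had limma adjusted p between 0.0563 and 0.0690 and were not called. The mean deviation of the list was -0.54 and -0.26 in gestation day 120, -0.21 and 0.09 in newborn, -0.12 to 0.13 in infant and 0.21 to 0.46 in adult arrays. Its median slope lay between 0.18 and 0.30 with an array left out and was 0.30 within collection methods. In bulk RNA, fewer cells of a type and less RNA per cell cannot be told apart. Of 14 measured genes of skeletal muscle 0 were called and 3 rose at an unadjusted p under 0.05, with a mean log2 level of 7.24 to 7.41 in all arrays; their part in these rises was not tested.

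CDH2 had the most firmly called fall. It encodes N-cadherin, the adhesion molecule of mesenchymal cells. On its most firmly called probe set the level was 9.06 and 8.88 at gestation day 120, 8.45 and 8.28 in newborn, 8.10, 8.03, 8.23 and 8.13 in infant and 7.76, 7.39 and 7.50 in adult arrays, each stage below the last with no overlap. The slope was -0.45 (SE 0.044; limma adjusted p = 0.000283, at most 0.00891 with an array left out), a 2.67-fold lower adult mean. A second probe set fell by 0.30 per stage (limma adjusted p = 0.0269) but lost the call without gestation day 120 array 1 or 2, newborn array 1, or adult array 1 or 2 (up to 0.203). Within collection methods the slope of the first was -0.58, with a limma adjusted p of 0.115, the lowest in that fit and the same as that of HMGA1.

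CDH6, K-cadherin, fell as well. Of its 5 probe sets 3 were called, with slopes of -0.57, -0.50 and -0.34, and the others had -0.16 and -0.03. On the first of these the level was 9.74 and 9.24 at gestation day 120, 8.90 and 8.29 in newborn, 8.14, 8.33, 7.61 and 8.42 in infant and 7.73, 7.75 and 7.71 in adult arrays (SE 0.075; limma adjusted p = 0.00572). Infant array 3 lay below the adult arrays, and the call was lost without gestation day 120 array 1 (adjusted p = 0.0838). The other 2 called probe sets lost theirs in 5 and 10 of the 11 fits without 1 array, up to 0.309. CDH11, the cadherin typical of bone-forming mesenchyme, had a slope of -0.06 and was not called (limma adjusted p = 0.847). Among the 12 measured cadherins, protocadherins and catenins 7 had a slope below 0, and only CDH2 was called on its brightest probe set (8.33%). Of all genes 49.7% had a slope above 0 and 0.318% were called on their brightest probe set.

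In the list of genes known for fetal growth, 4 members fell. It holds imprinted genes, HMGA proteins and IGF2 messenger RNA binding proteins. Of 16 measured members 12 had a slope below 0, and the list median was -0.089. The 4 called members made 25.0%, against 0.318% of all genes, of which 49.7% had a slope above 0. The list's mean deviation was 0.24 and 0.30 in gestation day 120, 0.20 and 0.07 in newborn, -0.14 to 0.07 in infant and -0.24 to -0.20 in adult arrays. Adult arrays lay below all infant arrays, and newborn array 2 was level with infant array 3. With an array left out the list's median slope lay between -0.12 and -0.076. Within collection methods it was -0.12, with 6 members above 0.

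HMGA1 and HMGA2 are architectural chromatin proteins of embryonic and dividing cells. HMGA1 was at 10.99 and 10.40 at gestation day 120, 10.09 and 9.78 in newborn, 9.79, 9.76, 10.24 and 10.07 in infant and 9.16, 9.02 and 8.98 in adult arrays (slope -0.49, SE 0.076; limma adjusted p = 0.0175). Its fall came in a first and a last step, with newborn and infant arrays overlapping in between. HMGA2 was at 8.32 and 9.52, then 8.71 and 7.41, then 7.26, 7.30, 8.13 and 7.41, and at 7.22, 7.00 and 7.17 in adult arrays (slope -0.58, SE 0.11; limma adjusted p = 0.0494). Its arrays varied within a stage, infant array 3 and newborn array 1 being high, and the adult arrays were the lowest.

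IGF2BP3, which binds the IGF2 messenger RNA, was at 7.72 and 7.44 at gestation day 120, 7.30 and 7.67 in newborn, 6.80, 7.00, 7.08 and 6.86 in infant and 7.00, 6.53 and 6.62 in adult arrays (slope -0.32, SE 0.054; limma adjusted p = 0.0269). MEG3, a maternally expressed imprinted RNA, was at 8.23 and 8.52, then 8.08 and 8.28, then 7.61, 7.72, 7.70 and 7.76, and at 7.48, 7.58 and 7.94 in adult arrays (slope -0.26, SE 0.051; limma adjusted p = 0.0494). In both genes the flushed arrays lay above all aspirated arrays, and the step from newborn to infant, -0.55 and -0.48, was the largest. Within collection methods their slopes were -0.17 and -0.09, smaller than those of HMGA1 (-0.86) and HMGA2 (-0.57).

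The calls in this group also rested on single arrays. HMGA1 lost its call without gestation day 120 array 1 or adult array 1 or 2 (adjusted p up to 0.148), and IGF2BP3 without either gestation day 120 array, newborn array 1 or adult array 2 (up to 0.164). HMGA2 kept its call only without newborn array 2, and MEG3 only without adult array 3 (both up to 0.290). MEST, an imprinted gene of growing mesenchyme, had a slope of -0.59 that was not called (limma adjusted p = 0.121). Each of HMGA1 and MEG3 has another probe set, with slopes of -0.02 and 0.02. IGF2BP3 has 2 others, not called, with slopes of -0.073 and -0.037. Its called probe set was dim, with a mean log2 level of 7.09, below the median of all probe sets.

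**Figure D3:**
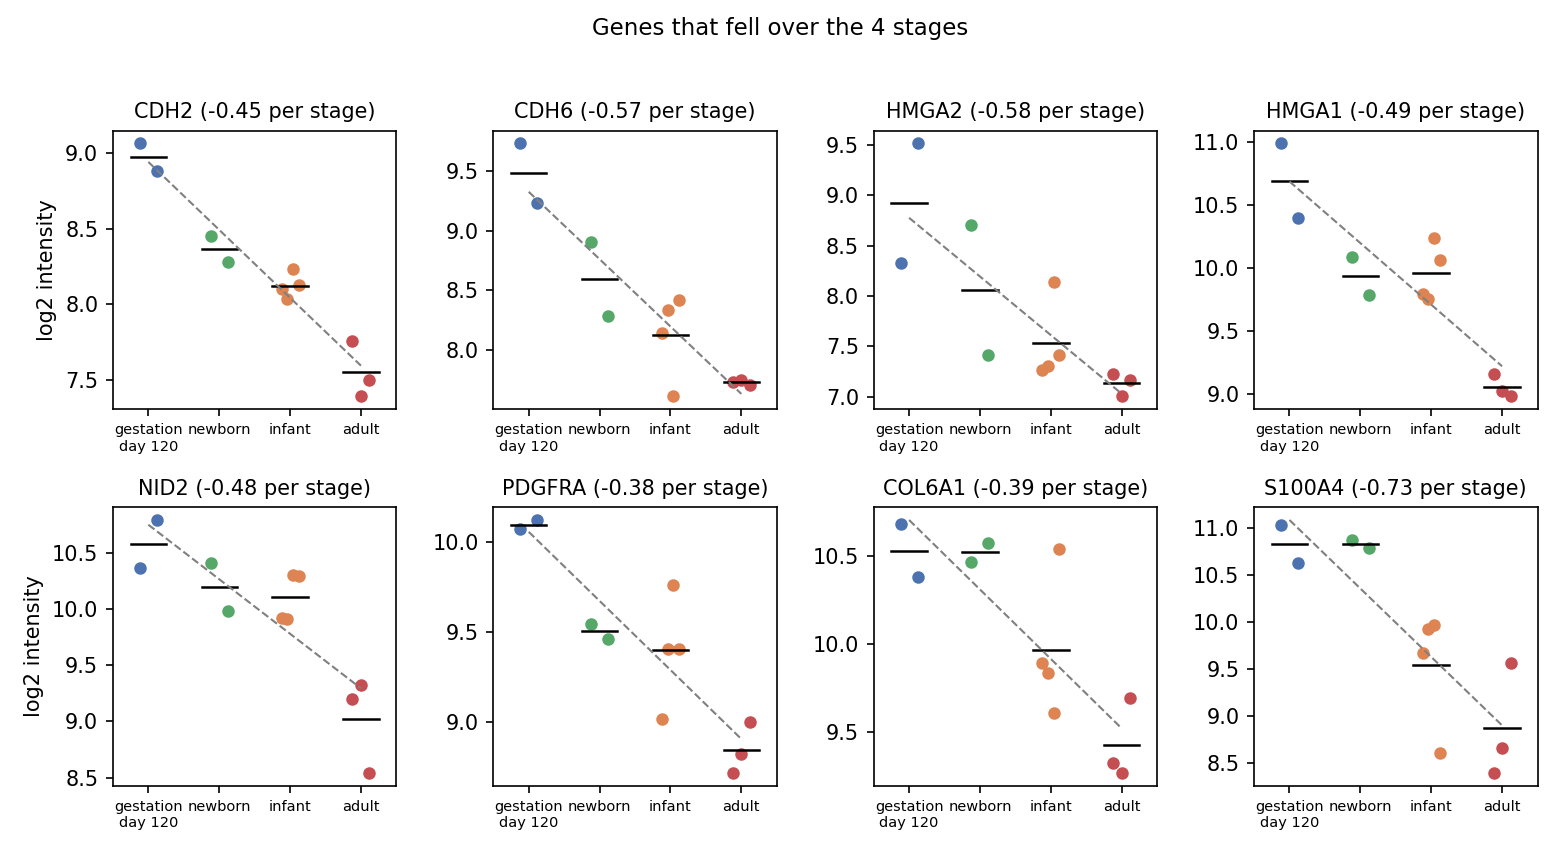
Log2 intensity of 8 falling genes in each of the 11 arrays (vertical axis) by stage (horizontal axis); points are arrays, short bars stage means and dashed lines the fitted slope, which stands in each title. CDH2 falls with no overlap between stages, whereas HMGA2 varies within stages and COL6A1 has 1 infant array, at 10.54, as high as the newborn arrays.

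Matrix genes moved in both directions. COL6A1 and COL6A2 encode chains of collagen VI, which surrounds cells in connective tissue. COL6A1 was at 10.68 and 10.38 at gestation day 120, 10.47 and 10.57 in newborn, 9.89, 9.83, 9.61 and 10.54 in infant and 9.32, 9.27 and 9.69 in adult arrays (slope -0.39, SE 0.073; limma adjusted p = 0.0408). COL6A2 was at 10.73 and 10.39, then 10.16 and 10.63, then 9.12, 9.72, 9.41 and 10.35, and at 8.99, 9.20 and 9.48 in adult arrays (slope -0.48, SE 0.088; limma adjusted p = 0.0356). Both were level before and at birth, and infant array 4 stayed as high as the newborn arrays. Of the 7 other COL6A1 probe sets none was called (lowest limma adjusted p = 0.486), and their slopes ran from -0.22 to 0.029, 4 of them below 0. The other COL6A2 probe set had a slope of -0.038 (adjusted p = 0.895).

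NID2, nidogen-2, which joins laminin to collagen IV, was at 10.36 and 10.79 at gestation day 120, 10.40 and 9.98 in newborn, 9.92, 9.91, 10.30 and 10.29 in infant and 9.19, 9.32 and 8.54 in adult arrays (slope -0.48, SE 0.093; limma adjusted p = 0.0446). Its adult arrays lay below all others. Of 19 measured collagens 2 were called, both falling (10.5%, against 0.318% of all genes). A slope above 0 was found in 9 of them, against 49.7% of all genes. Of 17 basement membrane genes LAMA2 rose, NID2 fell and 12 had a slope above 0. COL1A2, a chain of collagen I, had a slope of 0.09 (limma adjusted p = 0.744). The calls of NID2, COL6A1 and COL6A2 were lost in 7, 9 and 7 of the 11 fits without 1 array, each time including both gestation day 120 arrays, newborn array 1 and adult arrays 1 and 2 (adjusted p up to 0.213). They were also lost without infant array 1 or 2 for NID2, infant array 2 or 3 for COL6A2, and newborn array 2 or infant array 1, 2 or 3 for COL6A1.

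PDGFRA, the alpha receptor for platelet-derived growth factor and a marker of mesenchymal progenitors, was at 10.07 and 10.12 at gestation day 120, 9.55 and 9.46 in newborn, 9.02, 9.41, 9.76 and 9.41 in infant and 8.72, 8.82 and 9.0 in adult arrays. The slope was -0.38 (SE 0.058; limma adjusted p = 0.0144), and the gestation day 120 arrays lay above all others while the adult arrays lay below all others. Its other 2 probe sets had slopes of 0.0072 and 0.0075, neither called. Of 18 measured surface markers of these cells, PDGFRA was the only one called, against 0.318% of all genes. CD44, the hyaluronan receptor, had a slope of -0.21 (limma adjusted p = 0.0629). ENG, THY1 and NT5E, the CD105, CD90 and CD73 antigens that define these cells, had slopes of -0.07, -0.08 and 0.04 and adjusted p between 0.782 and 0.833. The leukocyte genes PTPRC (CD45) and CD14 had slopes of -0.04 and 0.01. On the deposited scale the level of NT5E, between 6.70 and 7.20, was below the median level of all probe sets, 7.38, in every array.

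S100A4, a calcium-binding protein of motile fibroblasts, had the steepest called fall of all. It was at 11.02 and 10.62 at gestation day 120, 10.87 and 10.78 in newborn, 9.67, 9.92, 9.96 and 8.61 in infant and 8.40, 8.66 and 9.56 in adult arrays. The slope was -0.73 (SE 0.12; limma adjusted p = 0.0269), but the whole fall lay after the newborn stage, and flushed and aspirated arrays did not overlap. None of the other 11 measured S100 genes was called. Within collection methods it was -0.42. The calls of PDGFRA and S100A4 were lost without either gestation day 120 array or adult array 1 or 2, and that of S100A4 also without newborn array 1 (adjusted p up to 0.148).

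ID3, an inhibitor of helix-loop-helix factors that responds to bone morphogenetic proteins, was at 8.44 and 8.19 at gestation day 120, 8.21 and 8.05 in newborn, 7.22, 7.52, 8.10 and 8.08 in infant and 7.13, 7.03 and 6.93 in adult arrays. It fell by 0.43 per stage (SE 0.074; limma adjusted p = 0.0269), and its adult arrays lay below all others. Its relatives ID1 and ID2 had slopes of -0.14 and -0.03 and were not called (limma adjusted p = 0.477 and 0.920). ID4 went the other way, with 0.17 on its brightest probe set, not called, and 0.52 on another, called. Among 21 measured genes of this pathway ID3 was the only one called on the brightest probe set, against 0.318% of all genes. The call was lost without gestation day 120 array 1 or 2, newborn array 1, or adult array 1 or 2 (adjusted p up to 0.148).

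Further falls concerned lipid handling and the cytoskeleton. ELOVL6, which lengthens saturated fatty acids, fell by 0.40 per stage (SE 0.054; limma adjusted p = 0.00572), from 8.50 and 8.41 at gestation day 120 to 7.05, 7.17 and 7.31 in adult arrays. It was the only one called of 20 measured genes of sterol and fatty acid synthesis (5.00%, against 0.318% of all genes). FABP5, a fatty acid binding protein, fell by 0.39 (limma adjusted p = 0.0445). DPYSL3, a regulator of actin and microtubules, fell by 0.43 and 0.33 on its called probe sets. GLIPR1, a secreted protein of the CAP family, fell by 0.41 (limma adjusted p = 0.00572), with gestation day 120 arrays at 10.14 and 10.21 and adult arrays at 8.69, 8.70 and 9.20. Other probe sets, not called, had slopes of -0.0084 for ELOVL6 and of -0.11 and -0.066 for GLIPR1. CXCL14, a chemokine, fell by 0.32 (limma adjusted p = 0.0297). The calls of ELOVL6 and GLIPR1 were lost only without gestation day 120 array 1 or 2 (adjusted p up to 0.0937), and those of the other 3 genes in at least 5 of the 11 fits without 1 array, up to 0.314.

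Of the genes of cell division 1 had a called fall. CDC25B, a phosphatase that starts mitosis, was at 9.12 and 9.14 at gestation day 120, 8.70 and 8.73 in newborn, 8.23, 8.49, 8.67 and 8.54 in infant and 7.85, 8.22 and 8.14 in adult arrays, with no overlap between stages. The slope was -0.34 (SE 0.044; limma adjusted p = 0.00572), and the call was lost without gestation day 120 array 1 or 2 (up to 0.0709). Of 35 measured mitosis genes 27 had a slope below 0, and the median was -0.11. At an unadjusted p under 0.05, 16 fell and 0 rose, and CDC25B was the only one called (2.86%). Of all genes 49.7% had a slope above 0 and 0.318% were called. CCNB2, a mitotic cyclin, had a slope of -0.39 (limma adjusted p = 0.0696). CDC20, an activator of the anaphase complex, had -0.58 (limma adjusted p = 0.159).

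The mitosis list did not follow stage array by array. Its mean deviation was 0.30 and 0.30 in gestation day 120, 0.32 and -0.22 in newborn, -0.18, -0.05, 0.17 and -0.33 in infant and -0.08, -0.03 and -0.21 in adult arrays. Newborn array 2 lay near the lowest infant arrays and infant array 3 well above the adult arrays, and its median slope within collection methods was -0.055. Of 39 measured DNA replication genes 34 had a slope below 0 and 0 were called, with a median of -0.097.

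Lists of glycolysis, proteasome and heat shock genes also had median slopes below 0, between -0.12 and -0.11. These medians were lower than that of the fetal growth list (-0.089), and the median of all genes was -0.0004. Other housekeeping lists differed, with medians of -0.048 for oxidative phosphorylation and 0.042 for ribosomal proteins. Of 22 glycolysis genes 18 had a slope below 0 (median -0.11), whereas 49.7% of all genes had a slope above 0. PKM, pyruvate kinase, had -0.25 (limma adjusted p = 0.0690). GAPDH, the glycolytic enzyme often used as a reference gene, was called on 2 of its probe sets with slopes of -0.29 and -0.33 but not on its brightest (-0.27; limma adjusted p = 0.134). The gestation day 120 means of the called sets were 1.91-fold and 2.13-fold the adult means, and both calls were lost without either gestation day 120 array, newborn array 1, any infant array, or adult array 1 or 2 (adjusted p up to 0.327).

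Of 26 proteasome subunits 25 had a slope below 0 (median -0.11), with PSMD4 at -0.20 and PSMA1 at -0.16, and of 23 heat shock and protein folding genes 21 did (median -0.12), with PDIA4 at -0.18. HSPA4 had -0.24 over all arrays but 0.025 within collection methods. None of the genes named in this paragraph was called, with limma adjusted p between 0.129 and 0.344. The proteasome list was lowest in adult array 3 (-0.44) and infant array 4 (-0.34), while adult arrays 1 and 2 were at 0.07 and 0.06. With adult array 3 left out its median slope was -0.068.

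**Figure D4:**
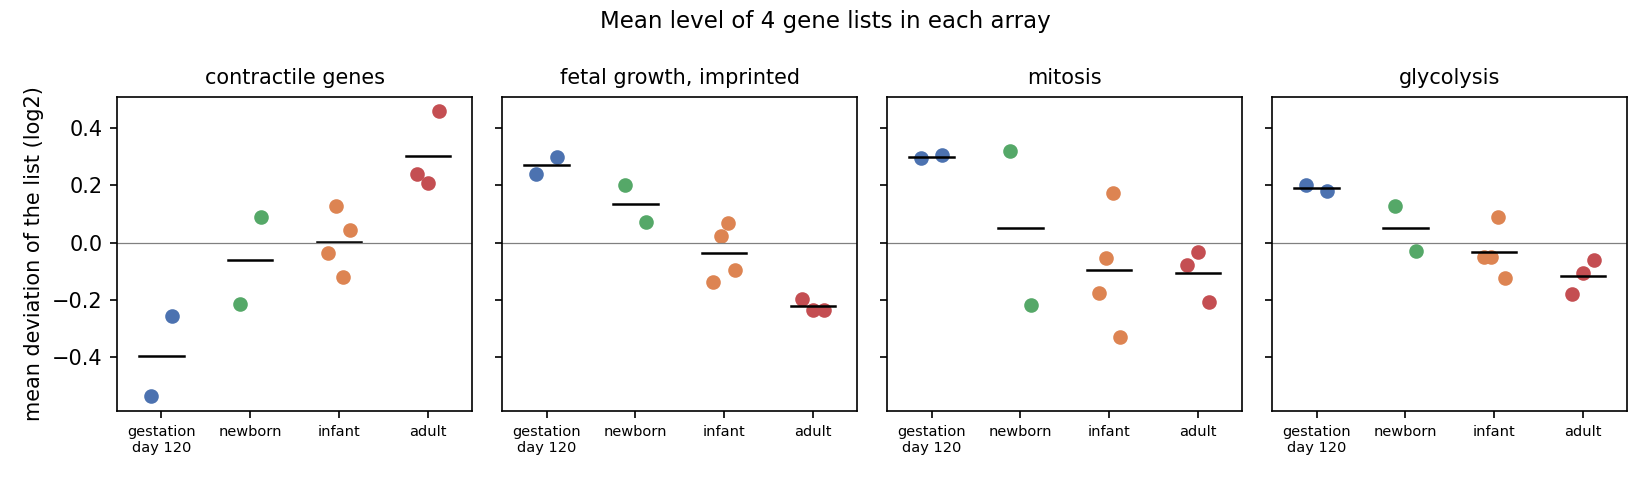
Mean deviation of 4 gene lists from each gene's own mean (log2, vertical axis) in each array, by stage (horizontal axis), with short bars for stage means. The contractile list lies between -0.54 and -0.26 at gestation day 120 and between 0.21 and 0.46 in adult arrays. The fetal growth list lies lowest in the 3 adult arrays, and newborn array 2 stands low in mitosis.

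Several RNA-binding proteins had called falls and are given here as values, chosen after these were seen. HNRNPD, which binds AU-rich elements, fell by 0.30 and 0.33 on 2 probe sets (limma adjusted p = 0.0224 and 0.0460). On the first it was at 11.70 and 11.59 at gestation day 120, 11.63 and 11.13 in newborn, 11.17, 11.14, 11.14 and 10.85 in infant and 10.75, 10.94 and 10.59 in adult arrays. Neighbouring stages overlapped, and the flushed arrays other than newborn array 2 lay above all aspirated arrays. HNRNPH1 fell by 0.26 and the splicing proteins SNRPA and SFPQ by 0.40 and 0.30. The serrate homologue SRRT fell by 0.27 and nucleolin, NCL, by 0.28. Other probe sets, none called, had slopes of -0.23 to -0.016 for HNRNPH1, -0.18 to -0.013 for SFPQ and -0.20 to 0.086 for SRRT. Of 19 measured genes with an HNRNP symbol 18 had a slope below 0, whereas 49.7% of all genes had a slope above 0. The HNRNP median was -0.15, with a range of -0.18 to -0.098 with an array left out. Only HNRNPD was called on its brightest probe set. Each of these calls was lost without gestation day 120 array 1 or 2 and in at least 3 of the 11 fits without 1 array (adjusted p up to 0.254).

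The other called falls were PARP12, an interferon-inducible ADP-ribosyltransferase (-0.32; limma adjusted p = 0.00572), TM4SF1, a surface protein of the tetraspanin-like L6 family (-0.36), the formin FHOD1 (-0.34), the syntaxin STX1A (-0.31), the actin-binding protein TAGLN2 (-0.31), the ATPase VCP (-0.24) and the RNA polymerase subunit POLR2L (-0.21). PARP12 lost its call only without gestation day 120 array 1 (adjusted p = 0.0888), and the other 6 in at least 4 of the 11 fits without 1 array, up to 0.327. TAGLN2 fell although its relative TAGLN rose. Another probe set, not called, had a slope of 0.038 for VCP, 0.0082 for POLR2L and -0.17 for TAGLN2. The other probe sets of TM4SF1, none called, had slopes from -0.27 to 0.061. Just inside the threshold were MEG3, POLR2L and HMGA2 (limma adjusted p = 0.0494), and just outside were YES1 (-0.26; 0.0517), NTRK2 (0.27; 0.0557) and CNN1 (0.28; 0.0563). On its brightest probe set NTRK2 had a slope of -0.029 (limma adjusted p = 0.891).

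**Figure D5:**
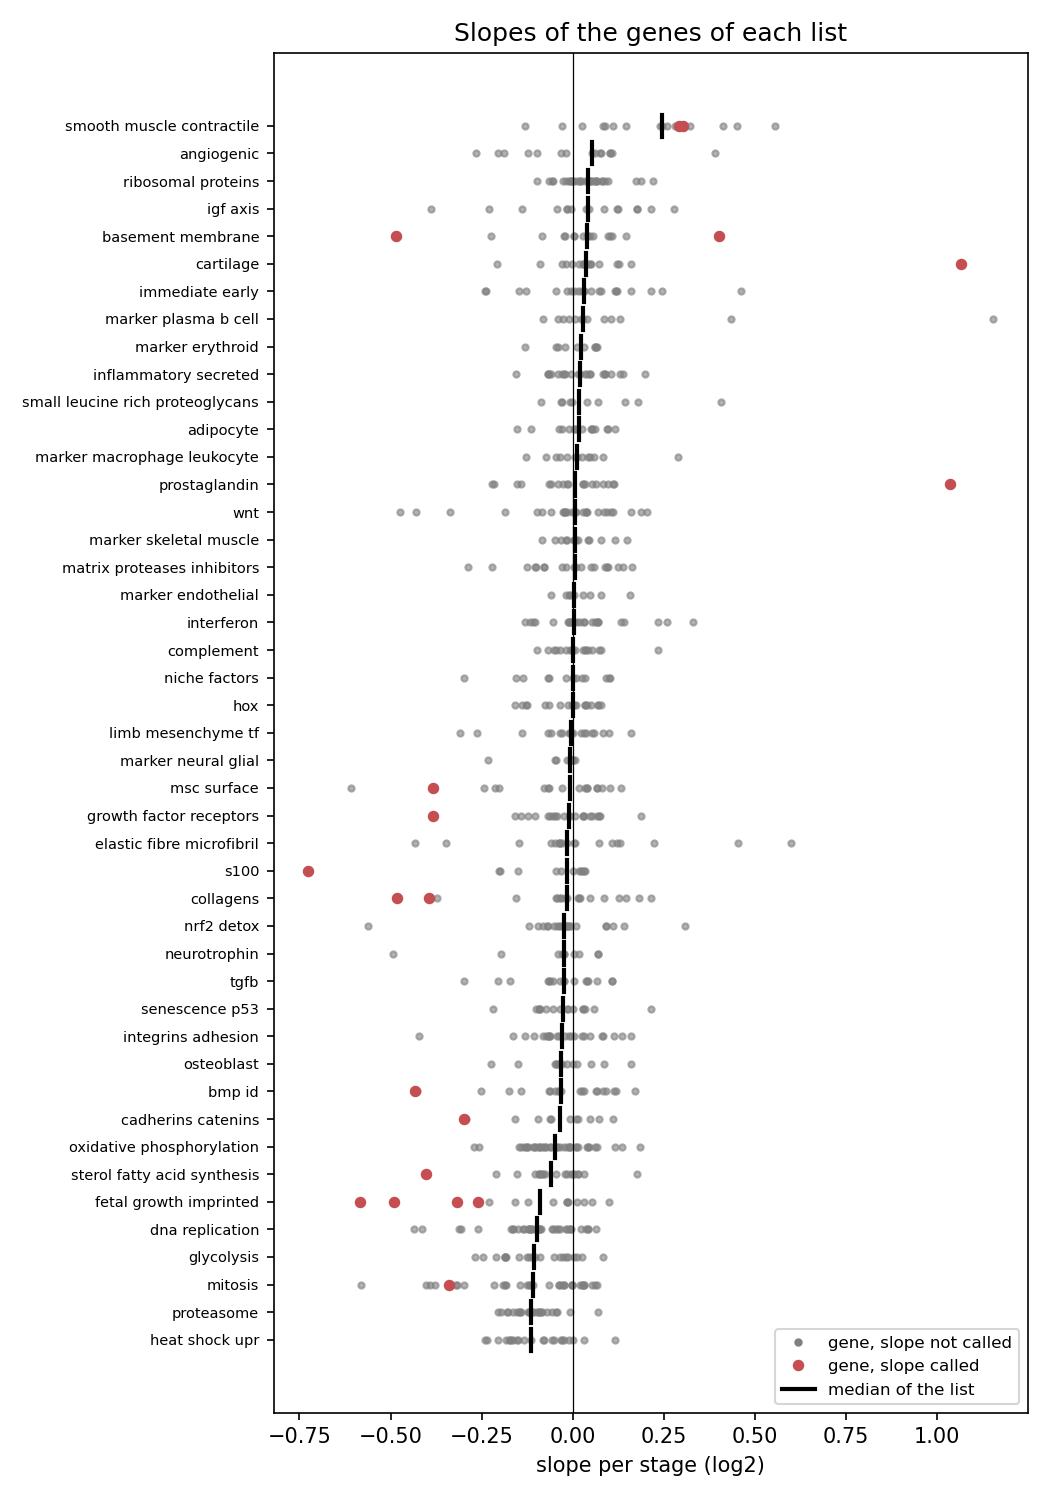
Slope per stage (log2, horizontal axis) of every measured gene of each of 45 gene lists (vertical axis, ordered by median slope), each gene by its brightest probe set. Grey points were not called, red points were called and black bars mark list medians. The contractile list stands to the right with a median of 0.24, and the medians of heat shock, proteasome, mitosis and glycolysis genes lie to the left, between -0.12 and -0.11.

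The other lists held few called genes. After the contractile list the next highest medians were those of angiogenic factors (0.052), ribosomal proteins (0.042) and the insulin-like growth factor axis (0.041), with 0 genes called in each. THBS2, an angiogenesis inhibitor, had a slope of 0.39 (limma adjusted p = 0.373) and VEGFA, the vascular endothelial growth factor, one of -0.26 (0.382). The slope of THBS2 was -0.016 without the adult arrays. IGFBP4 and IGFBP7, which bind insulin-like growth factors, had 0.18 (0.229) and 0.21 (0.411). RPS14, a ribosomal protein, had 0.17 (0.633) over all arrays and -0.089 within collection methods. RPL8 had -0.10 (0.647). Osteoblast, adipocyte, HOX, WNT, transforming growth factor beta, interferon and complement lists each had 0 called genes.

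Marker lists of other cells had 0 called genes. These were macrophages and other leukocytes (13 measured genes), plasma and B cells (13), erythroid (10), endothelial (9), skeletal muscle (14) and neural or glial cells (9). The plasma and B cell list deviated by 0.43 and 0.59 in adult arrays 1 and 2 and by -0.22 to -0.02 in all others. The largest slopes in this list were those of IGLC1 and IGKC, immunoglobulin light chains, at 1.15 and 0.43. They were not called (limma adjusted p = 0.247 and 0.442). Other members did not share this rise: CD79A, TNFRSF17, IGHM and MZB1 had slopes of -0.081, -0.040, -0.026 and -0.010. The mean level of the list was 7.68 to 8.29 in adult arrays and 7.48 to 7.65 in the others. Its part in the slopes of other genes was not tested. Without adult arrays 1 and 2 together, 7 probe sets were called, among them CHI3L1 (both), CDH2, PTGDS and FABP5.

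Single steps between neighbouring stages were seldom large enough to be called. From gestation day 120 to newborn 0 probe sets (0%) were called by limma, and 402 had an unadjusted p under 0.05. From newborn to infant 0 (0%) were called, with 801 at an unadjusted p under 0.05 and a lowest adjusted p of 0.372. From infant to adult 3 were called (0.0135%), all higher in adults: CHI3L1, ACTG2 and MFAP5. Without adult array 3 this count was 50, of which 21 had an immunoglobulin symbol, and leaving out other arrays lowered it to as few as 0. The title numbers of infant and adult arrays met the criterion for pairs, with deviations of the 3 pairs correlating at 0.131 to 0.204. Infant and adult arrays of different number correlated at -0.299 to 0.299, the highest being infant 4 with adult 3. The numbers therefore do not establish pairs. With the number as a block over the arrays of all stages, 24 probe sets were called by limma for this step. Of these, 12 were higher in adults, and CHI3L1, ACTG2 and MFAP5 were among them.

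ACTG2, an enteric smooth muscle actin, and MFAP5, a microfibril-associated glycoprotein, did not rise steadily. ACTG2 was at 8.03 and 8.60 at gestation day 120, 8.99 and 8.16 in newborn and 8.17, 8.36, 8.00 and 8.24 in infant arrays, and at 9.92, 9.63 and 9.75 in adult arrays. Its infant to adult step was 1.57 (SE 0.19; limma adjusted p = 0.0151), while its slope over the stages was not called (0.41; adjusted p = 0.30). MFAP5 was at 7.13 and 7.24, then 7.04 and 7.24, then 7.52, 7.60, 7.24 and 6.90, and at 8.88, 8.30 and 8.56 in adult arrays, a step of 1.27 (SE 0.17; limma adjusted p = 0.0446). For both, each adult array exceeded all others and the earlier stages overlapped.

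The genes that departed most from a line were CD99, ACTG2, CFD, FOSL2 and ADAM12, none of them called. CD99, a surface glycoprotein, was at 11.59 to 11.67 in the 4 infant arrays and at 10.98 to 11.22 in all others, with a slope of 0.01 and an adjusted p of 0.707 for departure in limma's F test. CFD, complement factor D, was also highest in infant arrays, at 7.56 to 7.86, against 6.95 to 7.34 elsewhere. FOSL2, an AP-1 transcription factor, and ADAM12, a metalloprotease, were highest in the newborn arrays, at 9.11 and 9.30 and at 7.63 and 8.03. On these probe sets of CD99, CFD, FOSL2 and ADAM12 the highest stage mean was newborn or infant. Their slopes over all stages lay between -0.24 and 0.05. On the brightest probe set of ADAM12, however, the newborn mean (7.65) was the lowest stage mean and the adult mean (7.80) the highest.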

How the data were processed

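RNA of 11 cultures was labelled with biotin and hybridised to 1 array each, per the labels' protocols. For each probe set the authors deposited a linear intensity from RMA (version not given), per the submitters' processing notes. RMA normalises between arrays, which removes differences in total brightness. Log2 was taken with no filter or pseudocount. Limma 3.58.1 in R 4.3.3 (lmFit, eBayes) fitted the stage score, tested two-sided, and a model with 1 mean per stage for steps and for the F test of departure from a line; Benjamini-Hochberg adjustment ran over all 22215 probe sets. Of these, 19065 had 1 gene symbol, 1043 several and 2107 none; probe set names with _x_ mark probes that can also bind other transcripts. In 45 lists 868 of 987 entries were measured, each by its brightest probe set.

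Named genes were, in each direction, the up to 12 genes of largest slope among called probe sets with ordered means, up to 4 called without ordered means, up to 3 called members of each list, the 2 members of smallest p of the 4 highest and 4 lowest lists by median, the 5 genes of smallest p for departure and, among those with ordered means, for the collection block, and identity genes. Other called genes, the HNRNP group and further members of lists were chosen after their values were seen. Members, lists and rule were chosen with earlier results of these data known. The fits were tested on simulated data. Intensities carry no counts, so the number of arrays limits the precision. Deviations from stage means correlated above 0.1 in 4 of 10 pairs of same-numbered arrays, so the numbers were not taken as pairs over the 4 stages. All 3 infant and adult pairs were above 0.1, so the infant to adult step is also given with the number as a block. Some infant and adult arrays of different number correlated more strongly, so this block does not rest on established pairs. No sequence is given, and array positions were not used here.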

Additional observations from a re-analysis of the deposited data

Results flagged for a closer look

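Among the 4 infant arrays, 4 of the 58 probe sets examined had 1 array far from the other 3 by Dixon's criterion, which chance alone meets in about 1 group in 20. CHI3L1 was at 11.44 in infant array 2 and at 10.89 to 10.90 in the others. PDIA4, a protein disulfide isomerase, was at 8.76 in infant array 1, with the nearest other at 9.03. PSMA1, a proteasome subunit, was at 10.13 in infant array 4, with the nearest other at 10.75. PTPRC, the leukocyte antigen CD45, was at 7.14 in infant array 1, with the nearest other at 7.80. Other stages had too few arrays for this criterion.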

How the results depend on the processing

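All 61 called slopes kept their sign in every fit that measured them (57 of 57 where dim probe sets were left out), but the count of calls varied. It was 33 with log10 age since conception (20 rising, 13 falling), 22 with the groups as titled (11 and 11), 154 with array weights, 2 without the gestation day 120 arrays (both CHI3L1) and 5 without the adult arrays. With collection method as a block it was 0, with the lowest adjusted p at 0.115. With the title number as a replicate block it was 198, and with collection method and title number together as a replicate block 0. Over all stages, same-numbered arrays correlated at -0.162 to 0.268 and did not meet the criterion for pairs. With that block, added after seeing the data, there were also 24 infant to adult steps, 2 gestation day 120 to newborn steps and 9 departures from a line. Chosen after seeing the data, leaving out adult arrays 1 and 2 gave 7, and leaving out adult and infant arrays 1 and 2 gave 4. Leaving out 1 array gave 5 to 107 slopes, 0 to 50 infant to adult steps, 0 to 24 departures from a line and 0 to 2 newborn to gestation day 120 steps; array weights gave 5 infant to adult steps. Without adult array 3, 16 of the 24 departures had immunoglobulin symbols. Quantile normalization gave 50 calls, 26 rising and 24 falling (52.0% rising, against 29.5%). Among the called genes named and the examples taken from lists, the slopes that reversed were those of HSPA4 (0.025) and RPS14 (-0.089) within collection methods, RPS14 without adult and infant arrays 1 and 2 (-0.049) and THBS2 without the adult arrays (-0.016). Of the 13 identity genes and genes that depart from a line, whose slopes were not called, 12 changed sign under some alternative. Within collection methods 7 did: CD99 (-0.40), CFD (-0.42), FOSL2 (0.40), ADAM12 (0.31), THY1 (0.0018), NT5E (-0.046) and PTPRC (0.081). The cause of these shifts was not tested, beyond the fewer arrays of the fits that leave some out. With 2 arrays in each of the first 2 stages, small slopes could not be told from the spread, and dim probe sets have little signal over background.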
